A study of Mus musculus with 9 samples.

Results

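The meniscus and the articular cartilage form side by side in the embryonic knee, and their RNA was compared here over all annotated genes. The members are the 6 arrays titled as meniscus replicates 1 to 3 and articular cartilage replicates 1 to 3, out of 9 arrays in the series. The remaining 3 arrays, of cruciate ligament, were left out of the fit since they were scanned and processed as another set. All samples were taken at E16 (embryonic day 16) from hindlimbs of the outbred mouse strain CD-1, with no treatment or genotype given, so that tissue is the 1 difference the labels give between the groups. Nothing in the labels says that the arrays of a tissue came from separate embryos, and so the spread behind the p-values is that of these samples and may be technical.

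The articular cartilage covers the bone ends and makes the hyaline matrix typical of chondrocytes, in which fibrils of collagens II, IX and XI hold aggrecan and its water. The meniscus is the wedge between femur and tibia that matures into fibrocartilage, a tissue that mixes such a matrix with the collagen I fibres, small proteoglycans and blood vessels of ligament-like tissue. Its outer rim is known to carry vessels and nerves, whereas articular cartilage has none. The comparison asks in which genes and functions both tissues already differ before birth.

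RNA was amplified, labelled with biotin and hybridised to Illumina bead arrays of 45281 probes. The median scanner signal lay between 93.4 and 101.2 on the meniscus arrays and between 99.5 and 103.8 on the cartilage arrays, and 28.9% to 31.9% and 29.4% to 35.6% of probes had a detection p below 0.01. The number of arrays limits the precision of every value. Values in a sentence are those of replicates 1, 2 and 3 in that order. Levels are background-corrected, quantile-normalized log2 intensities, and a difference is always meniscus minus cartilage on that scale, given with the SE of the fit (n = 3 arrays per tissue). Each gene was read from its brightest probe among those detected on all 3 arrays of at least 1 tissue, and was called at a Benjamini-Hochberg adjusted p under 0.05 in limma. Across genes, arrays correlated at 0.936 to 0.96 within meniscus, 0.925 to 0.963 within cartilage and 0.86 to 0.935 between the tissues. Meniscus replicate 3 was the closest of the meniscus arrays to each cartilage array.

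The labelled tissues could be checked against genes that define them. Sox9, the transcription factor of chondrocytes, stood at 11.595, 11.12 and 11.23 in meniscus, against 11.81, 11.901 and 11.901 in cartilage, with a difference of -0.55 ± 0.19, adjusted p = 0.169. Col1a1, the main collagen of fibrous tissue and bone, stood at 9.49, 9.18 and 9.44 in meniscus, against 9.28, 9.03 and 8.8998 in cartilage (0.298 ± 0.19, adjusted p = 0.431). Both tissues thus carried both genes at high levels, and neither gene passed the test in this fit. The Sox9 arrays of the tissues did not overlap, however, and another kept Sox9 probe differed by more (-1.21). Over the alternative limma fits given at the end, the adjusted p of Sox9 lay between 0.012 and 0.359. Gdf5, the growth factor of the forming joint, was detected on all 6 arrays at 6.23, 7.41 and 7.01 in meniscus, against 5.63, 6.53 and 7.34 in cartilage, where the tissues overlapped (0.39 ± 0.46, adjusted p = 0.67). Scx and Tnmd, genes of tendon, failed the detection filter and were not tested, and no probe carried the name Prg4, the gene of lubricin.

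Of 7209 named genes tested, 143 (1.98%) were higher and 115 (1.6%) were lower in meniscus, and 1890 genes (26.2%) had no overlap between the tissues' arrays. The counts given for each list below are to be read beside these shares. At an unadjusted p under 0.05 there were 784 rises and 643 falls. Called rises were between 0.81 and 3.18 (median 1.37) and called falls between 0.84 and 4.68 in size (median -1.48), while the median difference of all named genes was 0.034. Of all named genes 46.6% had a difference below 0. Among the rises, 131 exceeded 1 and 37 exceeded 2 on the log2 scale, and among the falls 101 and 32 did so. The rises were more often of genes near the detection limit of the other tissue. In cartilage, the probe was not above background on any array for 29 of the risen genes and on only 1 or 2 arrays for 44, while 70 were detected on all 6 arrays. In meniscus the same held for 16 and 18 of the fallen genes, with 81 detected on all 6. For a probe not above background in one tissue only a lower bound of the fold is given. These bounds ran from 1.23-fold to 3.36-fold for the rises and from 1.28-fold to 14.5-fold for the falls.

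**Figure D1:**
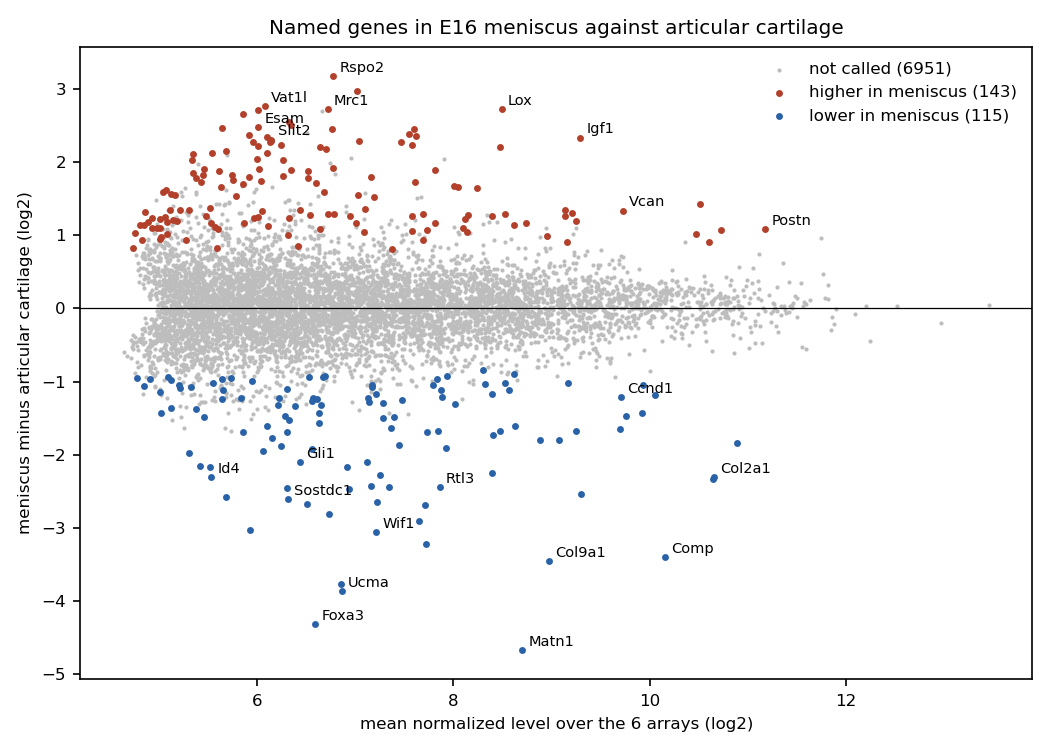
Difference (meniscus minus articular cartilage, log2) of each of the 7209 named genes against its mean normalized level over the 6 arrays (log2), with the 143 genes called higher in red, the 115 called lower in blue and the rest in grey. The falls reach further from 0 than the rises and include bright genes such as Comp and Col2a1, while most of the largest rises lie at mean levels below 8.

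How many genes passed depended on single arrays. Without meniscus replicates 1, 2 and 3 in turn there were 134, 18 and 40 rises and 71, 25 and 54 falls. Without cartilage replicates 1, 2 and 3 there were 53, 33 and 98 rises and 61, 41 and 70 falls. Each such fit, here and below, repeated the detection filter on the arrays left, so the genes tested could differ. The 40 largest calls each way and the called list members make 140 genes, of which 33 kept the call whichever of the 6 arrays was left out.

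Markers of other cell types come before the rises, since a tissue sample can hold vessels, blood and immune cells. In such bulk samples fewer cells of a type and less RNA per cell cannot be told apart. Of the 24 endothelial markers on the array, 10 were tested, of which 3 rose (Esam, Plvap and Cldn5) and 0 fell. The rises were 30% of those tested, against 1.98% of all genes. The summed linear level of the 10 was 507.9 to 954.0 on the meniscus arrays and 324.4 to 347.0 on the cartilage arrays, lowest of the meniscus arrays on replicate 1. The defining genes Vwf, Tie1, Eng and Sox18 were not detected on any of the 6 arrays, and 10 of the 24 were detected on all meniscus arrays against 1 on all cartilage arrays. Most tested markers thus passed the filter through meniscus alone, and such genes could hardly be called lower. Ramp2, the 1 marker detected on all 6 arrays, lay the other way and was not called (-0.36 ± 0.34, adjusted p = 0.594). Esam, an adhesion molecule of endothelial junctions, stood at 7.06, 7.76 and 6.94 in meniscus, against 4.27, 5.12 and 4.93 in cartilage and rose by 2.48 ± 0.303 (adjusted p = 0.00847).

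Macrophage and osteoclast markers rose in 6 of 13 tested cases (Aif1, Mrc1, Tyrobp, Ctss, Lyz2 and F13a1) and fell in 0. Their summed level was 2930.8, 5019.5 and 4210.1 on meniscus replicates 1 to 3 and 2125.4, 2086.7 and 2325.5 on the cartilage arrays, without overlap. Mrc1, the mannose receptor of tissue macrophages, stood at 7.33, 8.71 and 8.22 in meniscus, against 4.55, 5.55 and 5.98 in cartilage, a rise of 2.72 ± 0.45 (adjusted p = 0.0213). Of the 30 markers on the array, 9 were not detected on any array, among them Cd14, Itgam, C1qa and the osteoclast genes Acp5 and Ctsk. The 6 rises were 46.2% of those tested, against 1.98% of all genes. Only 3 of the 13 tested were detected on all 6 arrays. With genes detected on all 6 arrays the list's median difference was 0.62 instead of 1.66. The rises in this list numbered 13, 0 and 1 without meniscus replicates 1, 2 and 3 and 2, 2 and 4 without cartilage replicates 1, 2 and 3. These counts are not out of the 13 tested above, since the filter was repeated in each fit and the tested markers could differ. In the fit without meniscus replicate 2 the adjusted p of the 6 lay between 0.0519 and 0.156. Endothelial rises numbered 7, 1 and 2 without meniscus replicates 1, 2 and 3 and 1 without each cartilage array.

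Among the smaller marker lists, Rgs5 and Myl9 rose and Cspg4 fell of the 7 tested pericyte and smooth muscle markers, with summed levels of 1604.6 to 1782.5 in meniscus and 1020.7 to 1332.0 in cartilage; Pdgfrb and Tagln were not detected. The 6 tested red-cell genes lay higher in meniscus without a call (summed level 7078.2 to 8285.6 in meniscus and 3460.9 to 5430.7 in cartilage; 4 at an unadjusted p under 0.05), and the closely similar globin genes can share signal. Myl1 rose of 4 skeletal muscle markers (summed level 988.7 to 1296.5 in meniscus and 754.9 to 1140.4 in cartilage, with Myod1, Myog and Ckm not detected). Gap43 rose of 3 nerve and Schwann cell markers (233.2 to 422.6 in meniscus and 95.8 to 174.9 in cartilage, with Tubb3, Prph and Snap25 not detected). Fabp4 rose of 2 adipocyte markers (463.8 to 710.1 in meniscus and 282.9 to 620.2 in cartilage, with Adipoq and Plin1 not detected). Of the epidermal and the mast and lymphoid markers 1 each was tested, and neither Krt10 (50.2 to 102.8 in meniscus and 54.2 to 79.8 in cartilage) nor Gata2 (32.6 to 62.8 in meniscus and 26.5 to 64.3 in cartilage) was called, with Krt5, Krt14 and Epcam not detected. The part of these cell types in the rises described next was not tested.

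**Figure D2:**
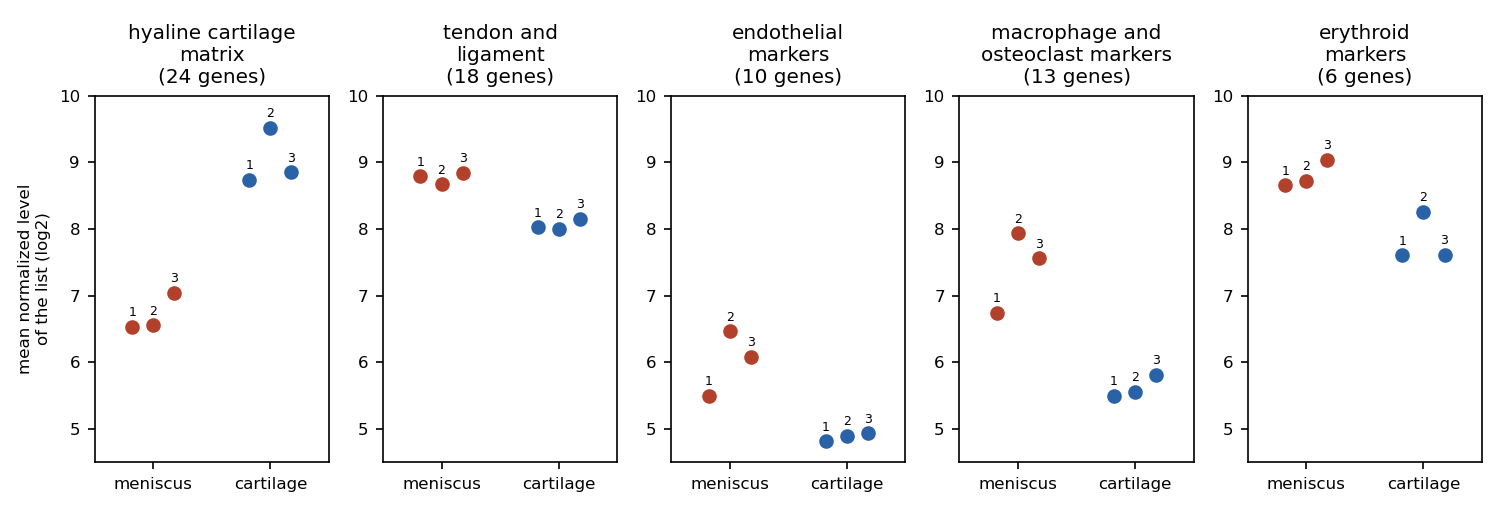
Mean normalized level (log2) of the tested members of 5 gene lists on each array, meniscus left and articular cartilage right, with the replicate number above each point. Cartilage matrix genes lie lower on every meniscus array, and the endothelial and macrophage markers lie higher on every meniscus array, with meniscus replicate 1 the lowest of its tissue. Detected on all 6 arrays were 1 of the 10 endothelial and 3 of the 13 macrophage markers shown.

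Genes of the hyaline cartilage matrix were lower in meniscus. Of 24 tested genes of hyaline cartilage matrix (28 on the array), 20 fell and 0 rose, against 1.6% falls among all genes, and the median difference was -2.32. For 23 of the 24 the arrays of the tissues did not overlap, against 26.2% of all genes, and the other 4 did not pass the detection filter. The falls numbered 17, 8 and 16 without meniscus replicates 1, 2 and 3, and 18, 13 and 17 without cartilage replicates 1, 2 and 3.

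Collagens II and IX of the hyaline fibril fell. Col2a1, its main chain, stood at 8.85, 9.28 and 10.37 in meniscus, against 11.84, 12.01 and 11.58 in cartilage, and fell by 2.31 ± 0.37 (adjusted p = 0.0193), which is 4.96-fold lower; the 2 other kept Col2a1 probes differed by less (-0.97 and -0.65). Col9a1, a chain of the collagen IX that coats the fibril, stood at 6.79, 7.02 and 7.93 in meniscus, against 10.37, 11.12 and 10.62 in cartilage, 10.96-fold lower (-3.45 ± 0.33, adjusted p = 0.00422). The other collagen IX chains moved alongside, with Col9a3 6.25-fold lower (-2.64 ± 0.21, adjusted p = 0.00409) and Col9a2 5.82-fold lower (-2.54 ± 0.22, adjusted p = 0.00409). Col11a1, whose product nucleates the fibril, had the smallest difference of the list, -0.68 ± 0.23, adjusted p = 0.155. The 2 other kept Col11a1 probes differed by more (-1.196 and -1.09). All 3 chains of collagen IX therefore passed the test in the same direction, and kept the call without any single array.

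Matrilins are adaptor proteins of the cartilage matrix, and all 3 tested fell. Matn1 stood at 5.53, 5.77 and 7.81 in meniscus, against 10.57, 11.62 and 10.95 in cartilage; it was 25.6-fold lower, the steepest fall of all called genes, and meniscus replicate 3 lay more than 2 log2 units above the other meniscus arrays. Matn4 was brighter in both tissues, at 8.82, 9.38 and 10.23 in meniscus, against 11.68, 11.99 and 11.76 in cartilage (-2.33 ± 0.34, adjusted p = 0.0138). Matn3 did not exceed background in meniscus, which makes it at least 3.04-fold lower (-2.15 ± 0.23, adjusted p = 0.00524). Comp, a pentameric glycoprotein that binds collagens, stood at 7.44, 8.51 and 9.43 in meniscus, against 11.62, 12.25 and 11.69 in cartilage, a difference of -3.397 ± 0.46, adjusted p = 0.0106. Its highest meniscus level was on replicate 3, as for Matn1 and Col2a1, and lay below every cartilage array.

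Proteoglycans and their partners fell as well. Acan, the large aggregating proteoglycan, stood at 7.89, 7.27 and 7.76 in meniscus, against 9.03, 9.72 and 9.18 in cartilage, 3.18-fold lower (-1.67 ± 0.26, adjusted p = 0.018), and Hapln1, the link protein that ties it to hyaluronan, was 3.47-fold lower (-1.79 ± 0.24, adjusted p = 0.0102). Snorc, a membrane proteoglycan of chondrocytes, was not above background in meniscus and at least 5.85-fold lower. Prelp, a leucine-rich matrix protein, stood at 6.11, 6.68 and 6.31 in meniscus, against 9.19, 9.32 and 8.66 in cartilage (-2.69 ± 0.25, adjusted p = 0.00409). Among secreted chondrocyte proteins, falls were measured for Ucma (-3.87 ± 0.51, adjusted p = 0.00944), Cytl1 (-3.77 ± 0.37, adjusted p = 0.00439), the vessel-inhibiting chondromodulin gene Cnmd (-2.904 ± 0.35, adjusted p = 0.00847), Mia (-1.796 ± 0.24, adjusted p = 0.0106) and Scrg1 (-1.12 ± 0.22, adjusted p = 0.0385). Papss2, which supplies sulphate for proteoglycans, also fell (-1.305 ± 0.28, adjusted p = 0.0492), as did Fmod, a collagen-binding leucine-rich proteoglycan also counted among tendon genes (-1.32 ± 0.21, adjusted p = 0.0203). Susd5, a sushi-domain protein, was at least 4.23-fold lower.

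Regulators of cartilage fell in part. Of 13 tested chondrocyte transcription factors and co-factors, 4 fell (Foxa3, Sox6, Sox8 and Wwp2) and 0 rose, with a median of -0.55. Foxa3, a forkhead factor of chondrocyte maturation, stood at 4.45, 4.25 and 4.603 in meniscus, against 8.84, 9.24 and 8.17 in cartilage. The meniscus values were at background on all 3 arrays, so that it was at least 14.5-fold lower (-4.32 ± 0.28, adjusted p = 0.00323). Wwp2, the ubiquitin ligase gene that hosts a cartilage microRNA and interacts with Sox9, stood at 8.89, 8.59 and 9.14 in meniscus, against 10.55, 10.56 and 10.45 in cartilage, a difference of -1.65 ± 0.198, adjusted p = 0.00847. Sox6, a partner of Sox9 on cartilage promoters, fell by 1.69 ± 0.36 (adjusted p = 0.047), and Sox8 was at least 1.88-fold lower (-1.36 ± 0.27, adjusted p = 0.0408). Barx2, a homeobox gene, had the highest difference of the list and was not called (0.23 ± 0.36, adjusted p = 0.756).

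Hedgehog signalling, which paces growth plate cartilage, was read through the receptor gene Ptch1 and the factor Gli1, both known targets of the pathway. Ptch1 stood at 5.73, 6.03 and 6.09 in meniscus, against 8.77, 8.099 and 8.26 in cartilage and was 5.39-fold lower (-2.43 ± 0.23, adjusted p = 0.00409). Gli1 stood at 5.41, 5.45 and 5.31 in meniscus, against 7.95, 7.24 and 7.29 in cartilage and was 4.28-fold lower (-2.098 ± 0.23, adjusted p = 0.00578). They were the 2 called of 6 tested growth plate genes (median -0.87), while 13 others, including Ihh and Col10a1, did not pass the detection filter. Of the 26 falls in these 3 cartilage lists, 21 kept the call without meniscus replicate 1, 12 without replicate 2 and 20 without replicate 3, and 22, 17 and 22 did so without cartilage replicates 1, 2 and 3. The 12 that kept it in every case were Cnmd, Col9a1, Col9a2, Col9a3, Cytl1, Foxa3, Gli1, Matn3, Prelp, Ptch1, Snorc and Wwp2.

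Beyond the 10 steepest falls, which were Matn1, Foxa3, Ucma, Cytl1, Col9a1, Comp, the fructose bisphosphatase Fbp2, Wif1, Snorc and Cnmd, ranks 11 to 40 held many genes outside the cartilage matrix list. Moxd1, a monooxygenase of the dopamine hydroxylase family, stood at 5.86, 5.31 and 4.83 in meniscus, against 8.08, 8.34 and 8.003 in cartilage and was 7.004-fold lower (-2.81 ± 0.27, adjusted p = 0.00422). Rtl3, a gene derived from a retrotransposon Gag protein, stood at 6.64, 6.25 and 7.04 in meniscus, against 9.26, 9.38 and 8.62 in cartilage (-2.45 ± 0.28, adjusted p = 0.00745). Rflna, a filamin-binding protein with a known part in mouse chondrocytes, was 4.5-fold lower (-2.17 ± 0.22, adjusted p = 0.0049), and Fam180a 5.45-fold lower (-2.45 ± 0.23, adjusted p = 0.00409). In each of these the lowest cartilage array lay above the highest meniscus array by more than 1 log2 unit.

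The other falls in this range were spread over several roles. Among receptors and surface proteins, Ldlrad3 (-2.28 ± 0.28, adjusted p = 0.00847), the reelin receptor Lrp8 (-1.94 ± 0.37, adjusted p = 0.0364) and the proteoglycan Cspg4 (-1.87 ± 0.24, adjusted p = 0.0091) fell, and melanotransferrin (Meltf) and Ncmap were at least 3.27-fold and 2.65-fold lower. Among nuclear and RNA-handling proteins, the embryonic chromatin protein Hmga2 (-1.88 ± 0.37, adjusted p = 0.0385) and the zinc-finger factor Bnc2 (-1.902 ± 0.41, adjusted p = 0.0492) fell, with smaller differences on another probe of each (-0.91 and -0.797), as did Gemin2, part of the complex that assembles spliceosomal particles (-1.85 ± 0.19, adjusted p = 0.00504). Gemin2 was bright in both tissues, at 9.99, 9.71 and 10.19 in meniscus, against 11.83, 11.69 and 11.91 in cartilage, but its other kept probe gave -0.028, so the probes disagree. Among enzymes, the kinase Stk26 (-2.67 ± 0.42, adjusted p = 0.0193) and the glycan-branching transferase Mgat4a (-2.46 ± 0.39, adjusted p = 0.0193) fell. Pcolce2, an enhancer of procollagen cleavage, and the lectin galectin-3 gene Lgals3 fell as well (-2.47 ± 0.299, adjusted p = 0.00847 and -2.25 ± 0.295, adjusted p = 0.00937). Of the genes at ranks 11 to 40 of the falls, 28 kept the call without meniscus replicate 1, 16 without replicate 2 and 26 without replicate 3, and 25, 23 and 27 did so without cartilage replicates 1, 2 and 3.

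**Figure D3:**
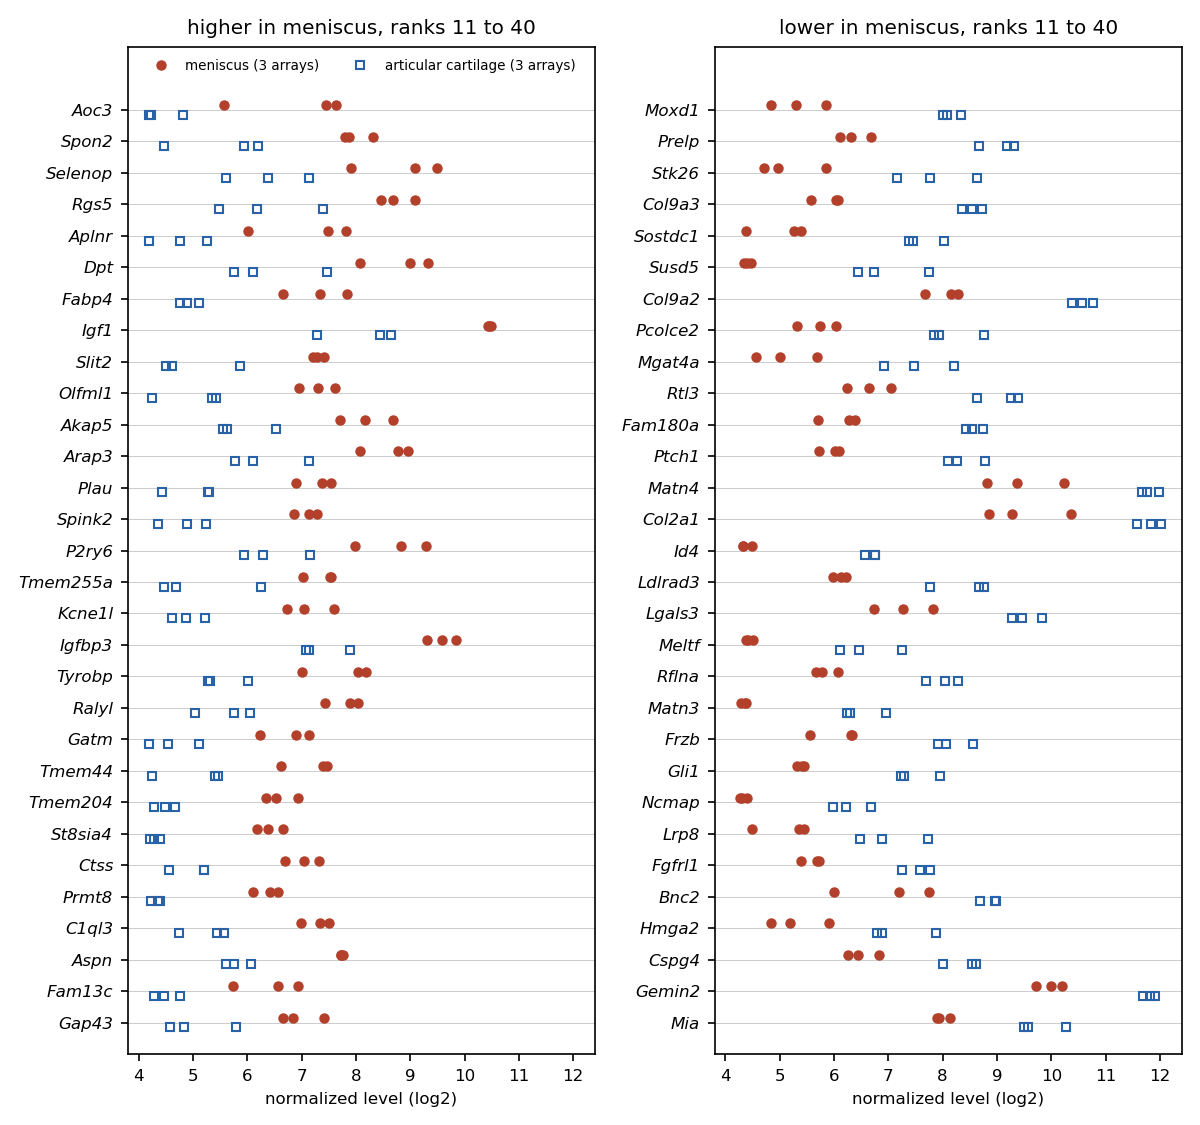
Normalized level (log2) on each array of the genes ranked 11 to 40 by the size of their called rise (left panel) or fall (right panel), with meniscus as filled circles and articular cartilage as open squares. The tissues do not overlap for any gene shown, which holds for all called genes. For most rises the cartilage squares lie between 4 and 6.

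On the rising side, the 10 largest were Rspo2, the macrophage gene Aif1, Vat1l, the cross-linking enzyme Lox, Mrc1, the myosin light chain Myl9, the proteoglycan Kera, the lipoxygenase Alox12, the nuclear receptor Nr2f2 and Esam. Vat1l stood at 7.66, 7.404 and 7.34 in meniscus, against 4.75, 4.26 and 5.09 in cartilage and rose by 2.77 ± 0.24 (adjusted p = 0.00409); Alox12 stood at 7.46, 7.68 and 7.67 in meniscus, against 4.63, 4.94 and 5.602 in cartilage and rose by 2.55 ± 0.26 (adjusted p = 0.00501). Both kept the call without any single array, whereas Lox and Kera kept it in 1 of the 6 cases each.

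Ranks 11 to 40 of the rises held genes known from vessels and immune cells next to secreted matrix and signalling genes. Aoc3, an amine oxidase of vascular walls, rose by 2.47 ± 0.52 (adjusted p = 0.0461), the pericyte gene Rgs5 by 2.39 ± 0.45 (adjusted p = 0.0333), the apelin receptor gene Aplnr by 2.37 ± 0.48 (adjusted p = 0.0408) and Arap3, a regulator of small GTPases, by 2.27 ± 0.38 (adjusted p = 0.0233). Tmem204 was not above background in cartilage and at least 3.35-fold higher. Aplnr stood at 6.02, 7.82 and 7.49 in meniscus, against 4.2005, 4.76 and 5.26 in cartilage. Like the summed endothelial markers, it was lowest of the meniscus arrays on replicate 1. Of the called endothelial markers, Cldn5 was lowest on replicate 1, and Esam and Plvap were lowest on replicate 3. Tyrobp, an adaptor of myeloid receptors, rose by 2.201 ± 0.35 (adjusted p = 0.0193), the lysosomal protease Ctss by 2.04 ± 0.26 (adjusted p = 0.00881) and the nucleotide receptor P2ry6 by 2.24 ± 0.41 (adjusted p = 0.0304). Selenop, the selenium carrier, stood at 7.92, 9.49 and 9.09 in meniscus, against 6.39, 5.602 and 7.14 in cartilage, a rise of 2.45 ± 0.49 (adjusted p = 0.0398). Tyrobp, Ctss, P2ry6 and Selenop were also lowest of the meniscus arrays on replicate 1. The summed macrophage markers, which include Tyrobp and Ctss, were lowest there as well. The called macrophage marker F13a1 was highest on replicate 1 (6.36, 5.74 and 5.73). Among rises on no list, Spink2 and C1ql3 were lowest on replicate 1 and Kcne1l was highest. Whether these patterns share a source was not tested.

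Other rises in this range were of matrix, inhibitor, channel and neuronal genes. Aspn, a small leucine-rich proteoglycan that binds collagen, stood at 7.76, 7.73 and 7.73 in meniscus, against 5.76, 5.603 and 6.07 in cartilage, 3.8-fold higher (1.93 ± 0.19, adjusted p = 0.00422), with the meniscus arrays within 0.04 of each other. Dpt, which binds decorin and collagen fibrils, rose by 2.35 ± 0.48 (adjusted p = 0.0434), and the secreted protein genes Spon2 and Olfml1 by 2.46 ± 0.43 (adjusted p = 0.0267) and 2.28 ± 0.34 (adjusted p = 0.0158). Spink2, a serine protease inhibitor, stood at 6.85, 7.15 and 7.28 in meniscus, against 4.35, 4.88 and 5.24 in cartilage (2.27 ± 0.26, adjusted p = 0.00719), and Kcne1l, an accessory subunit of potassium channels, at 7.605, 6.73 and 7.04 in meniscus, against 5.22, 4.62 and 4.87 in cartilage (2.22 ± 0.27, adjusted p = 0.00847). Spink2, Kcne1l, Aspn, Fabp4, Prmt8 and Tmem204 kept the call without any single array. Genes best known from neurons were also in this range: the growth-cone gene Gap43 rose by 1.902 ± 0.35 (adjusted p = 0.0308), the C1q-like gene C1ql3 by 2.02 ± 0.26 (adjusted p = 0.00937), and the methyltransferase Prmt8 and the polysialyltransferase St8sia4, both below background in cartilage, were at least 2.83-fold and 2.92-fold higher. The remaining genes of these ranks, Akap5, Tmem255a, Ralyl, Gatm, Tmem44 and Fam13c, rose by 1.91 to 2.28. Of these 30 genes, 26 kept the call without meniscus replicate 1, 7 without replicate 2 and 12 without replicate 3, and 18, 16 and 27 did so without cartilage replicates 1, 2 and 3.

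Genes of fibrous matrix rose in part. Among 18 tested tendon and ligament genes, 4 rose (Kera, Thbs2, Abi3bp and Postn) and Fmod fell, with a median of 0.64 against 0.034 for all genes. Kera, the keratocan of tendon and cornea, stood at 7.06, 6.35 and 8.17 in meniscus, against 5.23, 4.13 and 4.23 in cartilage, a rise of 2.66 ± 0.48 (adjusted p = 0.0289). Abi3bp, a matrix protein of connective tissue, stood at 8.31, 8.38 and 7.94 in meniscus, against 6.98, 6.89 and 6.97 in cartilage (1.26 ± 0.19, adjusted p = 0.0158). Postn, which helps collagen fibrils cross-link, was bright in both tissues at 11.94, 11.495 and 11.73 in meniscus, against 10.73, 10.36 and 10.81 in cartilage, and 2.12-fold higher in meniscus (1.09 ± 0.21, adjusted p = 0.0362). The 19 tested collagens of fibrous tissue gave 1 rise, of the basement membrane chain Col4a1 (1.64 ± 0.21, adjusted p = 0.00885), and 1 fall, of Col16a1 (-1.67 ± 0.21, adjusted p = 0.00859); their median was 0.35.

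Small leucine-rich proteoglycans split in both directions. Kera, Aspn and Ogn rose while Prelp and Fmod fell among 9 tested, and the median of 0.68 became -0.015 without meniscus replicate 1 and -0.0062 without cartilage replicate 3. Ogn, osteoglycin, rose by less than 1 log2 unit, at 9.63, 9.57 and 9.62 in meniscus, against 8.68, 8.69 and 8.73 in cartilage (0.91 ± 0.16, adjusted p = 0.0286). Elastic fibre genes rose in 3 of 12 cases (Lox, Loxl1 and the microfibril gene Mfap4) and fell in 0, with a median of 0.38. Lox stood at 10.05, 9.73 and 9.79 in meniscus, against 6.6998, 6.42 and 8.27 in cartilage, so that cartilage replicate 3 held most of the spread (2.73 ± 0.44, adjusted p = 0.0211). Loxl1, a relative of Lox needed for elastic fibres, rose by 1.23 ± 0.21 (adjusted p = 0.0232) and Mfap4 by 1.29 ± 0.19 (adjusted p = 0.0168). Loxl4, another enzyme of the family, was not above background in meniscus and at least 1.28-fold lower. Of 18 cross-linking and collagen-processing genes, Lox and Loxl1 rose and Pcolce2 and Loxl4 fell.

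Some proteases and adhesive glycoproteins rose and none fell. Of 22 tested proteases and inhibitors 3 rose (Plau, Adamts4 and Htra1) and 0 fell (median 0.49), and of 29 matricellular and adhesive glycoproteins 6 rose (Spon2, Dpt, Olfml1, Thbs2, Vcan and Postn) and 0 fell (median 0.49). Plau, the urokinase that activates plasmin, stood at 6.898, 7.55 and 7.38 in meniscus, against 4.43, 5.28 and 5.303 in cartilage, 4.83-fold higher (2.27 ± 0.29, adjusted p = 0.0091). Adamts4, an enzyme that cuts aggrecan and versican, stood at 8.19, 8.99 and 9.11 in meniscus, against 6.77, 6.25 and 7.61 in cartilage (1.89 ± 0.38, adjusted p = 0.042). Vcan, the large proteoglycan versican of loose and fibrous tissue, stood at 10.65, 10.19 and 10.34 in meniscus, against 9.21, 8.83 and 9.13 in cartilage, a rise of 1.34 ± 0.205 (adjusted p = 0.0178), opposite to its relative Acan. Htra1, a secreted serine protease, rose by 1.27 ± 0.23 (adjusted p = 0.0283). Of the 22 called genes in these 7 fibrous matrix lists, 13 kept the call without meniscus replicate 1, 3 without replicate 2 and 9 without replicate 3, and 13, 8 and 16 did so without cartilage replicates 1, 2 and 3. Aspn, Col16a1 and Prelp kept it in every case.

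Secreted regulators of Wnt signalling moved in opposite directions. Rspo2, an R-spondin that strengthens Wnt signalling at the receptor, stood at 9.27, 7.89 and 7.94 in meniscus, against 5.71, 4.51 and 5.33 in cartilage, 9.07-fold higher (3.18 ± 0.44, adjusted p = 0.0111), the largest called rise. The secreted inhibitors went the other way. Wif1, which binds Wnt ligands, stood at 6.17, 5.25 and 5.63 in meniscus, against 9.08, 8.67 and 8.47 in cartilage, a difference of -3.06 ± 0.28, adjusted p = 0.00409; Frzb, a decoy of Frizzled receptors, stood at 5.56, 6.34 and 6.31 in meniscus, against 7.91, 8.56 and 8.06 in cartilage, a difference of -2.11 ± 0.28, adjusted p = 0.00949. Sostdc1, which inhibits both BMP and Wnt signalling, stood at 5.40, 4.39 and 5.27 in meniscus, against 8.03, 7.38 and 7.46 in cartilage (-2.605 ± 0.31, adjusted p = 0.00847). At the receptor level, Lgr4, which binds R-spondins, fell by 1.43 ± 0.24 (adjusted p = 0.0232) while the Frizzled receptor gene Fzd6 rose by 1.12 ± 0.22 (adjusted p = 0.0398). These 6 were the calls among 16 tested Wnt genes, whose median was -0.25.

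IGF and FGF genes were also mixed. Igf1, the insulin-like growth factor, stood at 10.45, 10.49 and 10.44 in meniscus, against 8.65, 7.28 and 8.44 in cartilage, 5.05-fold higher, with 0.05 between the highest and lowest meniscus array (2.34 ± 0.34, adjusted p = 0.0144). Its binding protein genes Igfbp3, at 9.305, 9.85 and 9.59 in meniscus, against 7.09, 7.13 and 7.89 in cartilage, and Igfbp4 rose by 2.21 ± 0.27 (adjusted p = 0.00847) and 1.28 ± 0.203 (adjusted p = 0.0193). Il17rd, which dampens FGF signalling, rose by 1.79 ± 0.29 (adjusted p = 0.0216), with 0.64 on its other probe. The receptor Fgfr2, at 9.55, 9.36 and 9.49 in meniscus, against 10.71, 10.62 and 10.61 in cartilage, fell by 1.18 ± 0.17 (adjusted p = 0.0124), and Fgfrl1, a receptor without a kinase domain, fell by 1.93 ± 0.21 (adjusted p = 0.00524). Among 19 tested genes there were thus 4 rises and 2 falls, with a median of 0.14.

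BMP, GDF and TGF-beta signalling gave 1 call among 27 tested genes, a fall (3.7%, against 1.6% of all genes). Id4, an inhibitory helix-loop-helix factor, was read from a probe not above background in meniscus (4.33, 4.32 and 4.49, against 6.56, 6.75 and 6.75 in cartilage), at least 3.47-fold lower on that probe (-2.31 ± 0.17, adjusted p = 0.00409), while another Id4 probe was above background there. Gdf6, a relative of Gdf5 active in joints, had the highest difference (1.18 ± 0.46, adjusted p = 0.209), and cartilage replicate 3 reached the meniscus level for it.

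Of the Notch genes, 3 rose in meniscus and 0 fell. Notch4, a receptor known from endothelium, stood at 6.44, 7.03 and 6.98 in meniscus, against 4.998, 4.79 and 5.28 in cartilage, a rise of 1.79 ± 0.23 (adjusted p = 0.0091). Mfng, a sugar transferase that tunes Notch receptors, and Nrarp, a feedback inhibitor, were below background in cartilage and at least 1.55-fold and 2.04-fold higher. They were 3 of 7 tested genes (42.9%, against 1.98% rises among all genes), 11 others did not pass the filter, and the median was 1.18. Only 2 of the 7 were detected on all 6 arrays, and a gene kept through meniscus alone could hardly be called lower. With genes detected on all 6 arrays the list's median was -0.073 and 0 rose. Notch4 and the summed level of the endothelial markers were both lowest on meniscus replicate 1 among the meniscus arrays. The called markers Esam and Plvap were instead lowest on replicate 3, and a link to Notch4 was not tested. Among 14 receptor kinase and ligand genes 3 rose (Kitl, Pdgfrl and Hgf) and 0 fell, with a median of 0.65. The rises were 21.4% of those tested, against 1.98% of all genes. Only 9 of the 14 were detected on all 6 arrays, and Kitl and Hgf passed the filter through meniscus alone. Kitl, the ligand of the Kit receptor, stood at 6.46, 7.43 and 6.86 in meniscus, against 4.86, 5.34 and 5.31 in cartilage, a rise of 1.75 ± 0.28 (adjusted p = 0.0193). Pdgfrl, a receptor-like secreted protein, rose by 1.16 ± 0.204 (adjusted p = 0.027), and hepatocyte growth factor, Hgf, was at least 1.35-fold higher. Of 7 retinoid and steroid hormone genes, the nuclear receptor gene Nr2f2 rose by 2.51 ± 0.45 (adjusted p = 0.0289) and the retinol carrier Rbp4 fell by 1.07 ± 0.21 (adjusted p = 0.0408). Across these growth factor lists 21 genes were called, of which 16 kept the call without meniscus replicate 1, 4 without replicate 2 and 9 without replicate 3, and 12, 9 and 15 did so without cartilage replicates 1, 2 and 3. Fgfrl1, Id4, Sostdc1 and Wif1 kept it in every case.

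**Figure D4:**
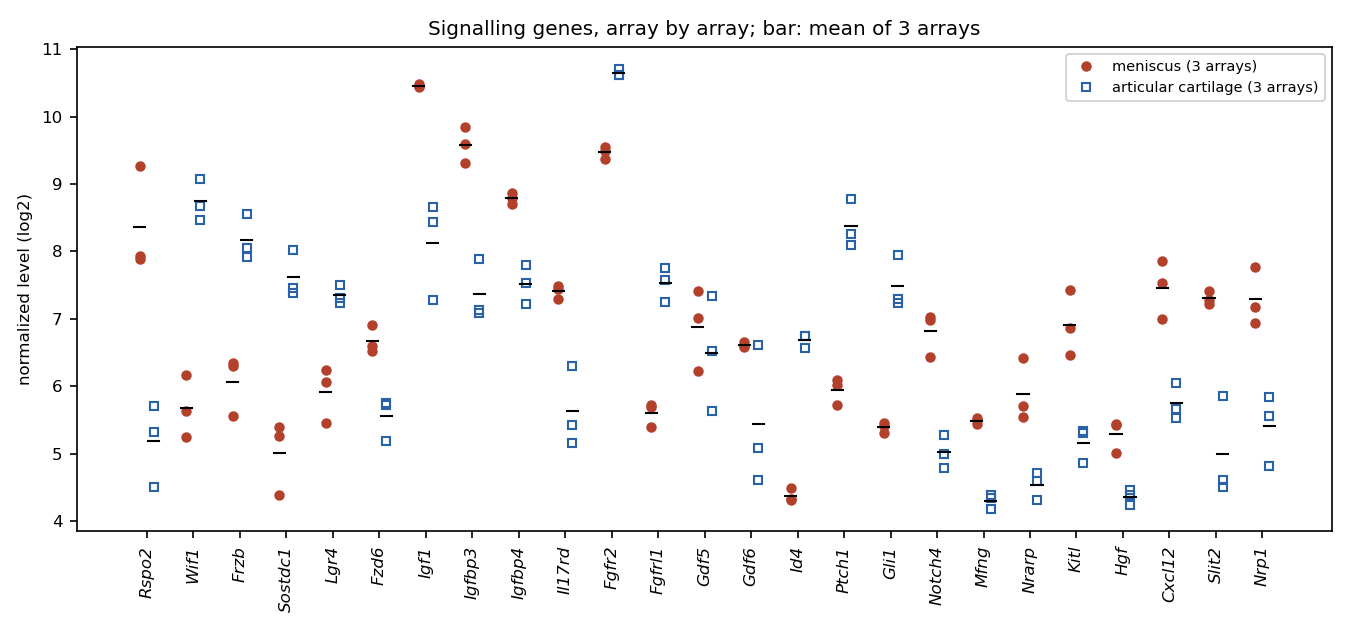
Normalized level (log2) of selected signalling genes on each array, with meniscus as filled red circles left of articular cartilage as open blue squares for each gene, and a bar at the mean of 3 arrays. Rspo2, Igf1, Igfbp3 and Slit2 are higher on every meniscus array, Wif1, Frzb, Sostdc1, Ptch1 and Gli1 are lower on every one, and Gdf5 overlaps.

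Guidance molecules and chemokines were called only upward by limma in this fit. Of the tested genes, 16 of 23 guidance and 9 of 14 chemokine, complement and interferon genes were detected on all 6 arrays. The called genes Slit2, Nrp1, Plxnd1, Plxna2, Ccl7 and Cxcl1 passed the filter through meniscus alone, and such genes could hardly be called lower. Slit2, the ligand of Robo receptors in axon and vessel guidance, stood at 7.41, 7.29 and 7.22 in meniscus, against 4.51, 4.61 and 5.86 in cartilage, 4.96-fold higher (2.31 ± 0.35, adjusted p = 0.0169). Nrp1, a co-receptor for semaphorins and VEGF, stood at 6.94, 7.77 and 7.18 in meniscus, against 4.82, 5.57 and 5.84 in cartilage, a rise of 1.89 ± 0.32 (adjusted p = 0.0239), and Sema6d, a transmembrane semaphorin, rose by 1.34 ± 0.25 (adjusted p = 0.0326). The semaphorin receptors Plxnd1 and Plxna2 were each read from a probe not above background in cartilage, at least 1.6-fold and 1.67-fold higher on it, while another probe of each gene was above background there; Plxna2 was read from another probe, with the opposite sign, without cartilage replicate 2 (-0.74). These 5 stood among 23 tested genes with a median of -0.048, and the netrin receptor gene Unc5c had the lowest difference (-1.24 ± 0.29, adjusted p = 0.0647).

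Of 14 chemokine, complement and interferon-response genes, Cxcl12, Ccl7, Cxcl1 and Ifitm3 rose and 0 fell, and 13 of the 14 differences were above 0 (median 0.59). Cxcl12, a chemokine that guides blood and endothelial precursors, stood at 7.001, 7.86 and 7.53 in meniscus, against 5.54, 5.66 and 6.06 in cartilage, 3.28-fold higher (1.71 ± 0.26, adjusted p = 0.018). Ccl7, which attracts monocytes, rose by 1.82 ± 0.26 (adjusted p = 0.0124), and Cxcl1, which attracts neutrophils, was at least 1.86-fold higher. Of these 9 guidance and chemokine genes, 7 kept the call without meniscus replicate 1, 0 without replicate 2 and 2 without replicate 3, and 4, 0 and 6 did so without cartilage replicates 1, 2 and 3. Of the 13 tested macrophage markers 6 rose on the same arrays (summed level 2930.8 to 5019.5 in meniscus and 2086.7 to 2325.5 in cartilage), and their part in these genes was not tested.

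Among cytoskeletal genes 2 of 29 tested contractile genes rose (6.9%, against 1.98% of all genes) and 0 fell (median 0.44). Myl9, the regulatory light chain of smooth muscle and fibroblast myosin, stood at 8.02, 7.36 and 6.71 in meniscus, against 4.55, 4.44 and 4.96 in cartilage, 6.55-fold higher (2.71 ± 0.33, adjusted p = 0.00847), and Csrp2, a LIM protein of smooth muscle, rose by 1.19 ± 0.24 (adjusted p = 0.041). Actn4, an actin cross-linker, had the lowest difference of the list (-0.71 ± 0.27, adjusted p = 0.201), but its 2 other kept probes had the opposite sign (0.069 and 0.39). Of 8 integrins, the collagen receptor Itga11 rose by 1.25 ± 0.25 (adjusted p = 0.0422), and of 22 adhesion molecules Cd24a, a small glycosylated surface protein, fell by 1.499 ± 0.28 (adjusted p = 0.0342). Among 18 joint interzone genes Htra1 alone was called, the median was 0.37, and Erg, a factor of the joint surface, had the lowest difference (-0.95 ± 0.29, adjusted p = 0.124). Of these 5 genes, 1 kept the call without meniscus replicate 1, 0 without replicate 2 and 2 without replicate 3, and 1, 1 and 3 did so without cartilage replicates 1, 2 and 3.

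No gene of limb patterning was called. By limma 0 of 27 tested limb and Hox genes were called in either direction (at an unadjusted p under 0.05, 3 higher and 5 lower), and the median was -0.15. All 10 tested Hox genes had differences below 0, between -0.15 and -0.86. Eya1, a transcriptional co-activator, had the highest difference of the list, at 8.59, 7.52 and 7.02 in meniscus, against 5.28, 6.28 and 6.08 in cartilage (1.83 ± 0.42, adjusted p = 0.0637), and Shox2, a homeobox gene of the proximal limb, the lowest (-0.99 ± 0.37, adjusted p = 0.191). Of 5 tested osteoblast genes limma called 0 (at an unadjusted p under 0.05, 0 higher and 1 lower), while 13 did not pass the filter, including Sp7.

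Of 29 tested genes of glycolysis and the hypoxia response, 3 fell (Car9, Egln3 and Ero1a) and 0 rose, against 1.6% falls among all genes. A difference below 0 was found for 27 of the 29, against 46.6% of all genes, and the median was -0.49. At an unadjusted p under 0.05, 15 of the 29 were lower and 0 higher, against 8.92% lower among all genes. The called falls numbered 2 without meniscus replicate 1 and 0 without any other array. Car9, a carbonic anhydrase induced by low oxygen, stood at 8.06, 6.88 and 7.69 in meniscus, against 9.402, 9.29 and 9.11 in cartilage, 3.31-fold lower (-1.72 ± 0.302, adjusted p = 0.0267). Egln3, an oxygen-sensing prolyl hydroxylase, fell by 1.23 ± 0.24 (adjusted p = 0.035), and Ero1a, an oxidase of the endoplasmic reticulum, fell by 0.92 ± 0.19 (adjusted p = 0.0475), with -0.067 on its other probe. Ero1a was also the 1 call among 42 tested genes of folding and secretion (2.38%, against 1.6% falls among all genes), with a list median of 0.072.

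Other metabolic lists gave single calls. In glycosaminoglycan synthesis, the sulphotransferase Chst15 rose by 1.35 ± 0.26 (adjusted p = 0.035) and Papss2 fell among 35 tested, and 23 of the 35 differences were below 0 (median -0.26). Each call was 2.86% of the list, against 1.98% rises and 1.6% falls among all genes. The sulphate transporter gene Slc26a2 had the lowest difference of that list (-1.45 ± 0.35, adjusted p = 0.0718). In lipid metabolism, Alox12 and the fatty-acid carrier gene Fabp4 rose and Lss, the lanosterol synthase, fell by 1.22 ± 0.25 (adjusted p = 0.0422) among 24. Among 28 solute carriers and channels, the sodium-calcium exchanger Slc8a1, at 8.804, 8.898 and 8.82 in meniscus, against 7.45, 6.85 and 7.21 in cartilage, rose by 1.67 ± 0.204 (adjusted p = 0.00847), with 0.55 and 1.76 on its other probes, and the amino acid carrier Slc1a4 by 1.22 ± 0.205 (adjusted p = 0.0233), while the glutamate carrier Slc1a3 fell by 1.296 ± 0.23 (adjusted p = 0.026) and the nucleoside carrier Slc29a1 fell by 1.23 ± 0.21 (adjusted p = 0.0233). The paralogues Slc1a3 and Slc1a4 thus moved in opposite directions.

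Growth and housekeeping lists gave few calls. Ccnd1, cyclin D1, stood at 8.82, 9.16 and 9.33 in meniscus, against 10.31, 10.29 and 10.34 in cartilage and fell by 1.21 ± 0.19 (adjusted p = 0.0193). It was the 1 call among 46 cell-cycle and replication genes (2.17%, against 1.6% falls among all genes), with a list median of -0.065. By limma 0 of 48 ribosomal protein genes were called (median 0.0081; 0 at an unadjusted p under 0.05) and 0 of 44 respiratory chain subunits (median 0.196; at an unadjusted p under 0.05, 3 higher and 0 lower). Of 28 immediate early and stress genes 0 were called (at an unadjusted p under 0.05, 5 higher and 3 lower), with Fos the highest (1.12 ± 0.37, adjusted p = 0.154). Among 19 S100, annexin and related genes, thymosin beta 4, Tmsb4x, rose by 1.02 ± 0.202 (adjusted p = 0.0392) and Lgals3 fell. Among 20 imprinted genes Meg3, a long non-coding RNA, fell by 1.47 ± 0.23 (adjusted p = 0.0186), and 16 of the 20 differences were below 0 (median -0.34). Of the 16 genes called in these metabolic and growth lists, 8 kept the call without meniscus replicate 1, 3 without replicate 2 and 8 without replicate 3, and 5, 4 and 6 did so without cartilage replicates 1, 2 and 3. Alox12, Fabp4 and Lgals3 kept it in every case.

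**Figure D5:**
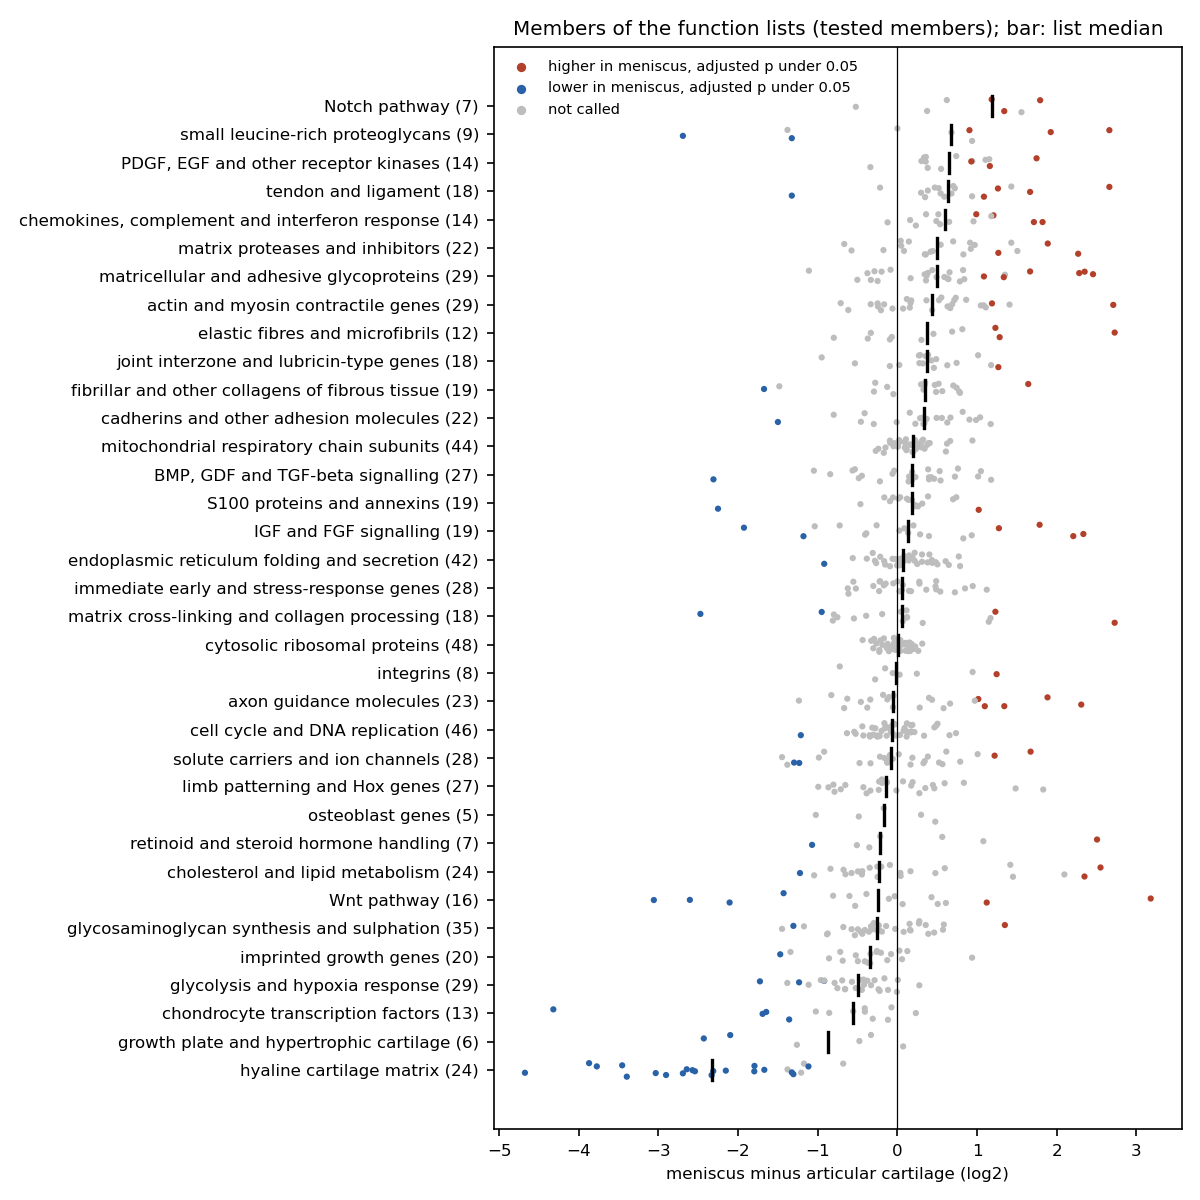
Difference (meniscus minus articular cartilage, log2) of every tested member of the 35 function lists, with the number tested in parentheses, called members in red (higher) or blue (lower) and a bar at the list's median. The cartilage matrix list lies lowest at a median of -2.32, the Notch list highest at 1.18, and the ribosomal list has a median of 0.0081. Of the 7 Notch genes only 2 were detected on all 6 arrays, and with such genes alone the Notch median was -0.073.

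Promoters of the called genes were read from RefSeq, from 250 bases before to 50 bases after each annotated start (GRCm38.p6). A window was found for 103 of the 143 risen, 95 of the 115 fallen and 5877 of the 7209 tested genes. Letters were searched on both strands. The TATA box TATAAA was in a window of 23 risen genes (22.3%) and 9 fallen genes (9.47%), against 9% of all tested genes with a window. The SOX core AACAAT was in 13.6% of risen and 6.32% of fallen genes, against 6.89% of all. In the same order, the hypoxia element ACGTG was in 21.4%, 22.1% and 30.5%, the TEAD core GGAATG in 18.4%, 18.9% and 14%, and the CArG box of SRF in 1.94%, 2.11% and 1.68%; it overlapped a TATA box in 3 of 7484 windows. A match is a description of these letters, not of a bound factor. Among risen genes, the TATA box (22.3% against 9%) and the SOX core (13.6% against 6.89%) lay furthest above all tested genes. These differences in share were not tested.

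A window of each of 3 genes described above is printed to show such matches, 5′ to 3′, with the motif in capitals. Prelp, which fell, holds the reverse complement of the SOX core (chr1:133921352-133921651, minus strand). Myl9, which rose, holds a CArG box (chr2:156775214-156775513, plus strand). Selenop, which rose, has 3 windows, and the one printed holds a TATA box (chr15:3270727-3271026, plus strand).
Prelp: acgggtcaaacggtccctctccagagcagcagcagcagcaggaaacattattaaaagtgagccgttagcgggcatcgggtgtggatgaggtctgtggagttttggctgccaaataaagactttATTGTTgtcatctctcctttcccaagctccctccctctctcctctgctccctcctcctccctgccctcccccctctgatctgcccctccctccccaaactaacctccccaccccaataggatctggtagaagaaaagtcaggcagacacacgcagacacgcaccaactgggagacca
Myl9: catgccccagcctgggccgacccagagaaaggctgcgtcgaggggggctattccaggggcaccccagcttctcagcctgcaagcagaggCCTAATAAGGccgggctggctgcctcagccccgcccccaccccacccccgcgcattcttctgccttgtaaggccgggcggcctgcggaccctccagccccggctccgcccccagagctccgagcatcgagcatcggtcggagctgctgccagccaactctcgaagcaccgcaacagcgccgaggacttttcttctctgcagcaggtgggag
Selenop: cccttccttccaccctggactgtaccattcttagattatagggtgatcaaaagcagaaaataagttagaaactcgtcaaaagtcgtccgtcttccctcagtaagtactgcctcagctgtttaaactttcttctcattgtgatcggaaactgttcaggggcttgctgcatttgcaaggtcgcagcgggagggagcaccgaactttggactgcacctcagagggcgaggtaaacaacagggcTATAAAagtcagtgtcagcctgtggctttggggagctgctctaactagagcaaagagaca
The first base of each match lies 127 bases before the annotated start in Prelp, 161 in Myl9 and 10 in Selenop.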

How the data were processed

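Total RNA of 6 samples (PicoPure extraction, Ovation Pico amplification, biotin label, per the labels' protocols) was read on Illumina bead arrays. The deposited scanner table gives a linear intensity and a detection p-value per probe; the submitters' processing notes name GenomeStudio without a version. The authors' deposited value table, a normalized intensity whose method is not stated, served as an alternative and supplied gene names: its 45281 probes were matched to the scanner table by their ranks over the arrays (median rank difference 96 for the best partner and 4549.5 for the second). Per the deposited platform annotation 34885 probes had 1 symbol, 18 several and 10378 none, and 34807 probes had a gene ID in the RefSeq table (GRCm38.p6), which changed 0 symbols.

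Scanner intensities of the 6 arrays were corrected with neqc (offset 16, quantile normalization) on the log2 scale and fitted with limma 3.58.1 in R 4.3.3 (lmFit, eBayes), with Benjamini-Hochberg adjustment over 9128 features: 7209 named genes and 1919 unnamed probes. Adjusted p under 0.05 was a call. A probe was kept at detection p under 0.01 on all 3 arrays of a tissue, and the brightest kept probe stood for its gene; of 78 called genes with another kept probe, 2 had one of opposite sign (Cpox and Nlrx1). For a probe not above background in a tissue, a bound was set against the lowest detected signal. Named genes are the 40 largest calls each way, the called members of the lists, the highest and lowest member of each list, and landmark genes of these tissues; others were named after their values were seen. Members and lists were chosen with earlier results of these data known. No 2 arrays were identical, and all 6 counted as replicates. Protein sequences were not used here.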

Additional observations from a re-analysis of the deposited data

How the results depend on the processing

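Rises and falls were recounted under each alternative. Counts stayed within 1.5 times of 143 rises and 115 falls without background correction (176 and 150), with an offset of 50 (158 and 135), with cyclic loess (153 and 116), with the authors' values (179 and 153), with the mean of a gene's probes (174 and 134) and with array weights (208 and 168). They moved further with no detection filter (22 and 30), with genes detected on all 6 arrays (70 and 75) and with all 9 arrays fitted together (30 and 25). That 9-array fit adds the ligament arrays, which were processed as another set. An intensity trend in the spread also moved the counts further (245 and 196). Leaving out 1 array gave 18 to 134 rises and 25 to 71 falls. The cause of these moves was not tested. With the replicate number as a block there were 82 rises and 59 falls. Deviations of same-numbered arrays correlated at 0.069, 0.144 and 0.015, and those of differently numbered arrays at -0.118 to 0.042. Replicates 1 and 2 of each tissue correlated best with their own number, whereas meniscus 3 and cartilage 3 did not. Whether same-numbered arrays shared embryos or a preparation is not given by the labels and was not tested.

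Of 140 called genes (the 40 largest each way and the called list members), 7 kept their call under every alternative run and 33 kept it whichever array was left out. Plxna2 reversed to -0.45 with no detection filter and to -0.74 without cartilage replicate 2, where another probe was the brightest; without 1 array each it ranged from -0.74 to 1.24. Of 44 list medians 30 kept their sign throughout. A slide block was not run, since the files give no slide. Signal over background is the limit for 73 rises, whose probe was detected on fewer than 3 cartilage arrays.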

Other observations

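Genes on none of the lists made up 83 of the rises and 67 of the falls, and those named here were chosen after their values were seen. Both heparin-binding growth factors of the midkine family were higher in meniscus: Ptn stood at 11.02, 11.46 and 11.19 in meniscus, against 9.75, 9.61 and 10.05 in cartilage, a rise of 1.42 ± 0.21 (adjusted p = 0.0138), and Mdk at 9.46, 10.15 and 9.704 in meniscus, against 8.24, 8.39 and 8.91 in cartilage, a rise of 1.26 ± 0.26 (adjusted p = 0.0438). Neither overlapped between the tissues, which held for all 143 called rises. Further rises included Cav1, the coat protein of caveolae, by 1.73 ± 0.27 (adjusted p = 0.0193), and the forkhead factor Foxp1 by 1.53 ± 0.24 (adjusted p = 0.0193). Genes known from endothelium were among them too: the receptor phosphatase Ptprb rose by 1.59 ± 0.205 (adjusted p = 0.0091) and Lmo2, a blood and vessel cofactor, by 1.88 ± 0.31 (adjusted p = 0.0213). Of the 10 tested endothelial markers 3 rose on the same arrays, and their part in these rises was not tested.

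Among the falls outside the lists, Stat5a, a transcription factor of cytokine and growth hormone signalling, stood at 5.703, 5.94 and 5.51 in meniscus, against 7.34, 6.697 and 7.14 in cartilage, a difference of -1.34 ± 0.23, adjusted p = 0.0239. Falls were also called for Nt5e, the ecto-enzyme that makes adenosine (-1.18 ± 0.21, adjusted p = 0.0289), the adhesion receptor Adgrg6 (-0.94 ± 0.19, adjusted p = 0.0436) and the homeobox gene Barx1 (-0.996 ± 0.21, adjusted p = 0.0461). The 1919 unnamed probes tested gave 20 rises and 21 falls.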
